A study of Mus musculus with 2 samples.

Results

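The genes of the cytosolic ribosomal proteins were followed through every cell cluster of tumors from WT (wild-type) hosts and from hosts carrying an altered heat shock factor 1. Members were all genes of the deposited table whose symbol is Rpl or Rps, a number and at most a short ending (a, l, x or y, and digits), together with Rplp0, Rplp1, Rplp2 and Rpsa. Pseudogene symbols and the S6 kinase genes fall outside that rule. It found 82 of the 16416 genes, 50 of the large and 32 of the small subunit. All 82 had at least 1 UMI in each library, where UMIs, the random tags added at capture, count RNA molecules.

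There was 1 single-cell library per genotype: WT (6654 cells) and S303/7A (4802 cells), in which serines 303 and 307 of heat shock factor 1, HSF1, are alanines. HSF1 activates the genes of protein-folding chaperones when cells are stressed. The series text states that tumors of 4 mice were pooled, without saying whether per genotype or in all, so animals cannot be separated and no difference between the libraries has a replicate check. Sorted live CD45+ and CD45- cells were combined 5 to 1 in both libraries before droplet capture with version 2 of the 10x 3′ chemistry. The tumors were engrafted, and neither the genotype of the tumor cells themselves nor the age and strain of the mice is given in the labels. Cells carry the authors' 22 clusters and 11 classes, among them MF, Mo, DC and Gr. Macrophage markers were highest in MF cluster C03, monocyte markers in Mo cluster C07, and the NK, CD8 T, Treg, B, plasmacytoid, neutrophil and mast cell lists were highest in a cluster of the matching class. The stromal list was instead highest in tumor cluster C01. Median depth was 7698 UMIs per cell in the WT and 13028 in the S303/7A library, and 48 cell barcodes occurred in both. Comparisons use the 17 clusters with at least 50 cells in each library, 12 of them immune.

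A ribosome joins a small subunit, which reads the messenger RNA, to a large subunit, which forms peptide bonds. Nearly every ribosomal protein is present as a single copy per ribosome, so cells make these proteins in matched amounts. Their messenger RNAs begin with a C followed by an unbroken stretch of pyrimidines, the 5′ terminal oligopyrimidine (TOP) motif, through which the mTORC1 pathway and LARP1 set their translation. The family is among the most abundant groups of messenger RNA in growing cells and in lymphocytes.

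The start of the gene is shown here because the TOP motif is the sequence feature the family is known for. RefSeq promoter entries (GRCm38.p6) were matched by symbol for 62 of the 82 members. A C and 4 or more further bases that are each C or T stood exactly at the annotated start in 12 of the 62 (19.4%), against 290 of 12022 genes of the table with an entry (2.41%). Such a stretch began within 5 bases of the start in 27 members (43.5%), against 2384 genes overall (19.8%). Only the strand of the gene was searched, and the match depends on where RefSeq places the start. Each sequence below runs from 10 bases before the annotated start to base 15 after it. Capitals mark the pyrimidines from the C nearest the start that opens such a stretch. Pyrimidines directly before that C are left in lower case, so the unbroken run can begin further upstream.
Rps6: gaagtcgggcCTCTTTTTCgtgacg
Rps18: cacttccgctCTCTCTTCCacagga
Rps15a: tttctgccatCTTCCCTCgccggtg
Rps27: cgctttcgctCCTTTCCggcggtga
Rps9: cttgtctCTCTTTgtctcgggcctg
Rps27l: cctccccgccgCCTCTatcccggaa
Rpl22l1: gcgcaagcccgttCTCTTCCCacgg
Rpl36a: cccaggcaccgcctataaacttccg
Rpl41: gggccggctcggaagtgacgacacc
Rps28: cgcgtgcggtctcgcgagagcgaaa
The windows of Rps6 (chr4:86857353-86857377, minus strand), Rps18 (chr17:33955651-33955675, minus), Rps15a (chr7:118116133-118116157, minus) and Rps27 (chr3:90213634-90213658, minus) held the stretch at base 1. In Rps9 (chr7:3704031-3704055, plus) it began 3 bases before the start. In Rps27l (chr9:66946076-66946100, plus) and Rpl22l1 (chr3:28805498-28805522, plus) it began at base 2 and base 4. Rpl36a (chrX:134585644-134585668, plus), Rpl41 (chr10:128549154-128549178, minus) and Rps28 (chr17:33824548-33824572, minus) had no such stretch beginning within 5 bases of the annotated start. The RefSeq and GENCODE starts of the printed genes lay 0 (Rps27l, Rpl36a and Rps28) to 891 bases (Rps15a) apart. Among the 60 matched members found in every cluster compared, the median level was 34.2 CP10K (UMIs per 10000 UMIs of a cell, averaged over cells) for the 12 with the stretch at the start and 33.8 CP10K for the 48 without it.

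Members supplied 26388195 of 87075629 UMIs in the WT library (30.3%) and 21125986 of 72802158 in the S303/7A library (29.0%). Averaged over cells, the family share was 26.8% ± 8.24 (SD over cells) and 27.8% ± 7.73. The 2 summaries differ in direction: the mean counts each cell equally, and pooled UMIs weight a cell by its depth. Cells of a library are not replicates, and the SD describes their spread.

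The share differed more between clusters than between libraries. Neutrophil-marked Gr cluster C18 was lowest, at 10.49% ± 8.63 (39 WT cells) and 10.95% ± 6.74 (41 S303/7A cells). Mo cluster C07 was next in both libraries, at 15.7% ± 5.57 and 20.1% ± 5.19. Tumor cluster C14 (36.8% ± 5.62 and 36.4% ± 6.42), stromal cluster C15 (36.1% ± 11.3 and 37.0% ± 11.4) and B cell cluster C21 (35.1% ± 6.97, 47 cells, and 36.8% ± 5.25, 14 cells) were highest. NK cells, cluster C10, lay just above C06 CD8 T cells, at 31.8% ± 7.62 against 30.9% ± 5.16 in WT and 35.4% ± 7.06 against 34.5% ± 5.14 in S303/7A. Over the 22 clusters the 2 libraries ordered the share alike (Spearman correlation 0.94, a description over clusters that share a library and its depth). Large subunit members had between 1.12 and 1.36 times the UMIs of small subunit members in the compared clusters, in either library.

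**Figure D1:**
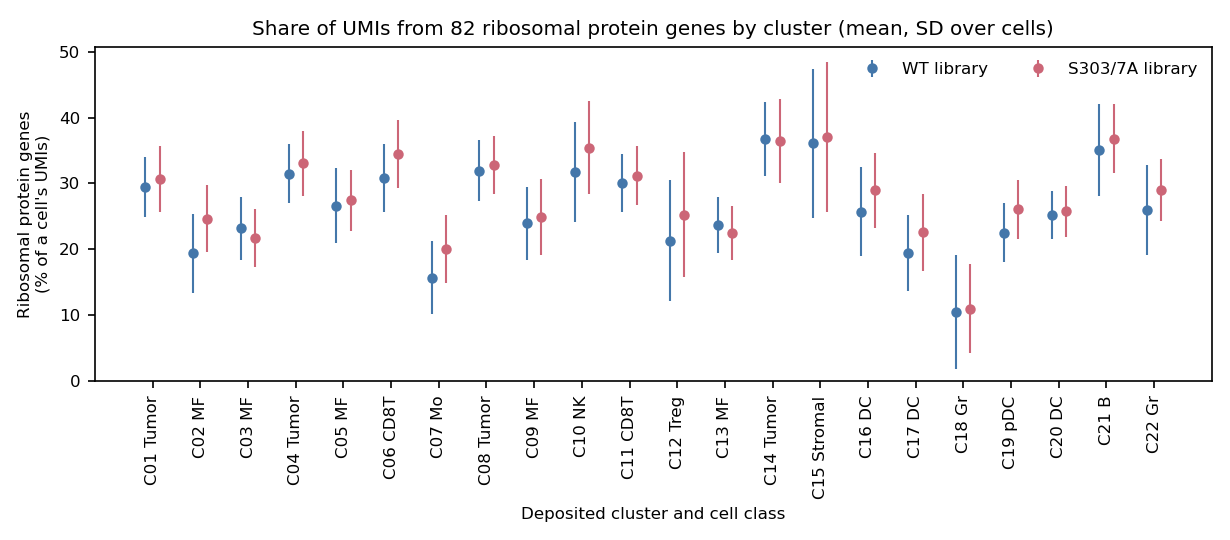
Percent of a cell's UMIs from the 82 members (vertical axis) in the 22 deposited clusters, as the mean over cells with bars of 1 SD over cells, for the WT and S303/7A libraries. C18 lies near 11% and C14, C15 and C21 above 35% in both libraries.

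Among the highest large subunit members were Rpl13 (72.5 CP10K averaged over the compared clusters and libraries), Rplp0 (62.9), Rpl32 (60.8) and Rpl10 (55.0). The small subunit was led by Rps23 (55.8), Rps14 (55.0), Rps18 (53.5), Rps4x (51.9) and Rps27a (51.7), which encodes a ribosomal protein fused to ubiquitin. These are levels of captured 3′ ends per cell and not protein amounts. The lowest large subunit members were Rpl27 (8.66 CP10K), Rpl22l1 (7.25), Rpl7l1 (0.641), Rpl3l (0.0158) and Rpl39l (0.0113), and among the lowest small subunit members were Rps28 (17.4), Rps26 (15.7), Rps21 (15.4) and Rps27l (7.10). Genes with single roles lay between these extremes: the stalk proteins Rplp1 and Rplp2, which with Rplp0 recruit translation factors to the ribosome, averaged 51.5 and 34.2 CP10K. Rpsa, also known as the laminin receptor, averaged 36.3 CP10K. Rps6, the S6 kinase substrate, averaged 42.9 CP10K. Rpl11 and Rpl5, which bind 5S RNA and the p53 regulator Mdm2, averaged 36.9 and 13.1 CP10K.

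Ribosomal protein genes have many processed copies in the genome, so a read can match several genes. A median of 68.9% of the 31-base words in the last 300 bases of a member's transcript also occurred in transcripts of another gene, 50 members shared 50% or more of them, and 15 shared none. Rps27 and Rpl36a shared 100%, Rps18 87.0%, Rps6 84.4% and Rpl35a 63.3%, while Rps27l shared 30.7% and Rps15a 0%. The treatment of such reads in counting was not given in the sources used here, so levels of the first group are uncertain. The words come from a single GENCODE transcript per gene, whose last 300 bases need not be where a member's reads fall. The Rps15a transcript has 5130 bases for 390 coding bases, so its 0% may not describe the captured ends.

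The make-up of the family also differed between clusters. Each member's UMIs were expressed as a percent of all member UMIs of the cluster, and the 8 members of at least 1 CP10K that varied most over clusters were Rps27l, Rpl36a, Rps29, Rpl10, Rpl37a, Rps15a, Rpl39 and Rplp0. The clusters were made from the same expression table, so these differences are descriptions.

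Rps27l (chr9:66946086-66949512, plus strand, ENSMUSG00000036781), the p53-responsive paralog of Rps27, was concentrated in DC cluster C17, the dendritic cluster with a WT level of 23.5 CP10K and an S303/7A level of 18.7 CP10K. That was 1.21% and 0.831% of member UMIs, against 0.206% and 0.202% in DC cluster C16. NK cells had the lowest share, 0.0763% in WT and 0.0784% in S303/7A, with 2.42 and 2.77 CP10K. The 4 lymphocyte clusters (C06, C10, C11 and C12) reached at most 0.161% and the 4 tumor clusters ran from 0.216% to 0.381%. Rps27 itself was higher in NK cells (40.2 and 49.2 CP10K) than in the 4 tumor clusters (WT 19.6 to 25.3, S303/7A 25.7 to 36.3). Its share of member UMIs was highest in C17, as for Rps27l, at 1.49% in WT and 1.65% in S303/7A.

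Rpl36a (chrX:134585654-134588056, plus strand, ENSMUSG00000079435), a large subunit protein, separated tumor and stromal cells from immune cells. It made up 0.598% to 1.73% of member UMIs in the tumor clusters of the WT library and 0.737% to 2.19% in those of the S303/7A library, and 1.15% and 1.29% in stromal cells. In the immune clusters it stayed at or below 0.618% in WT and 0.647% in S303/7A, the values of MF cluster C09. In CP10K it ran from 5.20 in WT monocytes to 72.0 in S303/7A tumor cluster C08. Tumor cluster C01 was the lowest of the tumor clusters in both libraries, and its WT value lay inside the immune range.

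Rps29 and Rpl37a, short zinc-binding proteins, peaked in the same macrophage cluster. Rps29 took 3.99% (WT) and 3.87% (S303/7A) of member UMIs in MF cluster C09 and at least 1.70% in the other macrophage clusters, against at most 0.985% in tumor clusters and 1.18% in lymphocytes. Other myeloid clusters were close to the macrophage clusters outside C09, with 1.80% and 1.85% in DC cluster C17 and 1.59% and 1.72% in Mo cluster C07. Rpl37a reached 3.82% and 3.56% in C09 and at most 1.54% in every other compared cluster. C09 is the shallowest compared cluster, with a median of 1386 and 2545 UMIs per cell. Red cell transcripts in C09 summed to 0.0501 CP10K in WT and 38.9 CP10K in S303/7A. The part of either in these shares was not tested.

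Rps15a was highest in lymphocytes: it held 1.82% to 2.52% of member UMIs across the WT lymphocyte clusters, and S303/7A values ran from 1.90% to 2.97%. The tumor clusters lay between 0.993% and 1.17% in WT and between 1.12% and 1.30% in S303/7A. CD8 T cluster C06 was highest in both libraries. MF cluster C05, at 1.65% and 1.83%, came nearest among the other cells. Rpl39, which lies in the peptide exit tunnel, was low in tumor clusters C04, C08 and C14 (WT 0.449% to 0.501%, S303/7A 0.565% to 0.598%) and 0.782% or more in the other clusters of either library. Rplp0, the stalk base, held 2.91% to 3.44% in tumor clusters of the WT library and 2.17% to 3.01% in those of S303/7A. It was lowest in C09, at 0.895% and 0.982%. CD8 T cluster C11 (2.79% and 2.43%) and stromal cluster C15 (2.80% and 2.39%) came near the tumor clusters in WT. In S303/7A both lay above tumor cluster C14. Rpl10, a late-joining large subunit protein, was highest in tumor cluster C08 (3.42% and 3.26%).

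**Figure D2:**
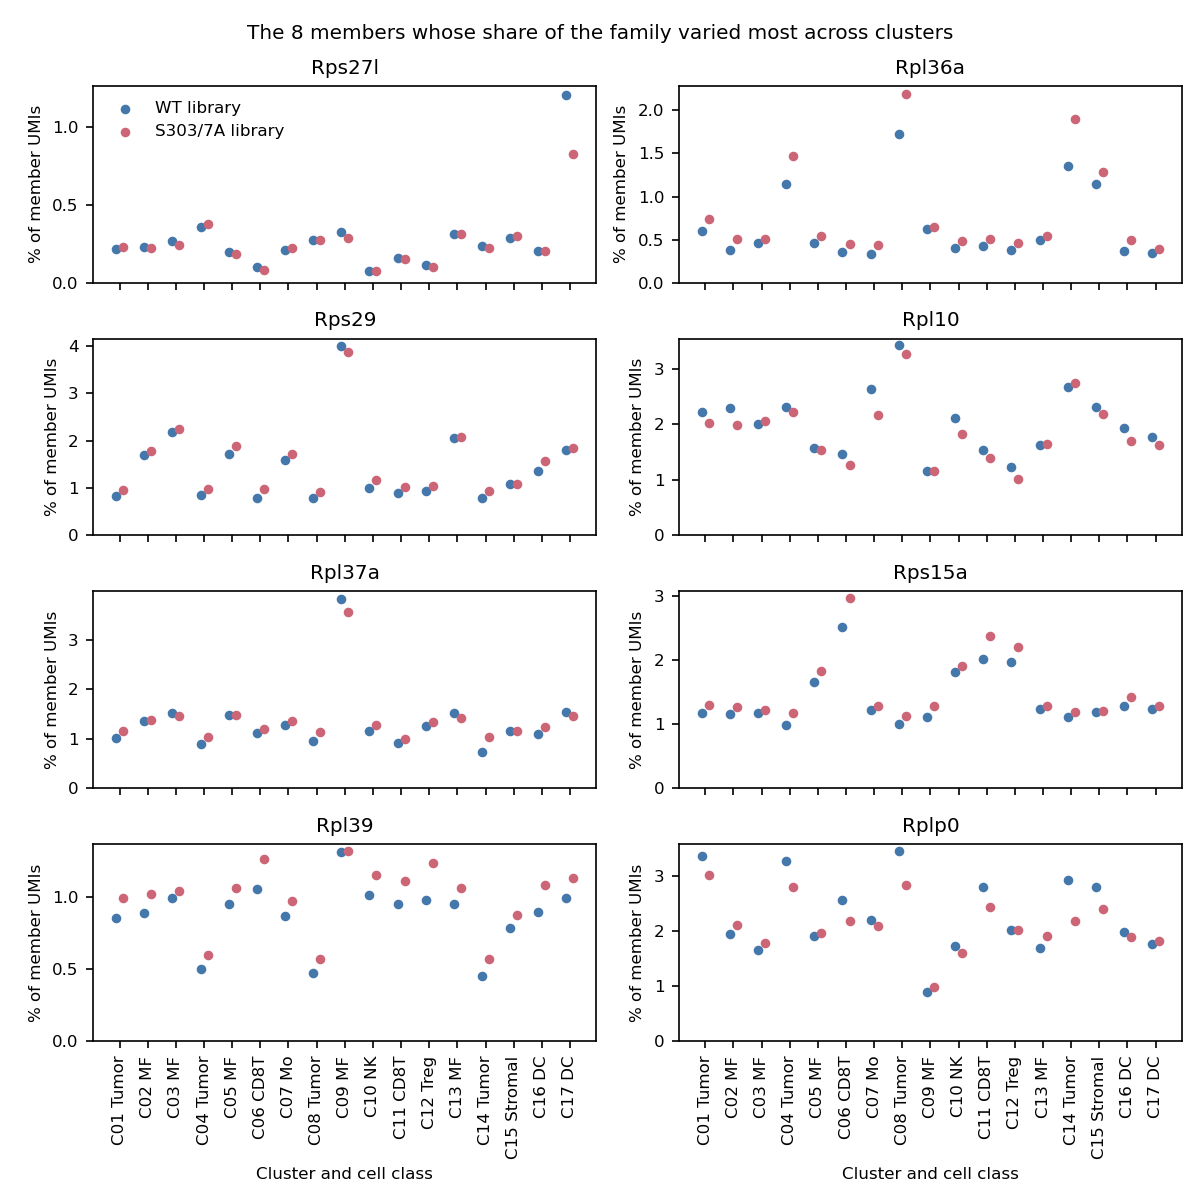
Share of all member UMIs (percent, vertical axis of each panel, starting at 0) of the 8 members that varied most, in the 17 compared clusters of the WT and S303/7A libraries. Rps27l stands out in C17, Rps29 and Rpl37a in C09, Rps15a in the CD8T and Treg clusters, and Rpl36a in C04, C08, C14 and C15.

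Relatives of the canonical genes ranged from moderately expressed to nearly absent. Rpl22l1, the paralog of Rpl22, ran from 2.85 to 12.3 CP10K over the compared clusters and Rpl22 from 6.39 to 19.0. Rpl7l1, which matches the rule by name but is not a standard protein of the mature ribosome, had 0.523 and 0.550 CP10K in NK cells against 36.6 and 36.0 for Rpl7. In stromal cluster C15 Rpl7l1 had 0.296 CP10K in the WT library and 0.890 in the other, from 44 and 71 UMIs (UMI ratio 1.67, interval 1.13 to 2.50). Rpl3l, the striated muscle relative of Rpl3, had 20 UMIs in 19 WT cells and 90 UMIs in 77 S303/7A cells, and no UMI in NK cells of either library (0 of 357 and 0 of 194 cells, which allows a share of cells with a UMI of up to 0.840% and 1.55%). In DC cluster C16 Rpl3l had 2 UMIs in 1 of 107 WT cells and 21 UMIs in 17 of 117 S303/7A cells. In DC cluster C17 it had 4 UMIs in 4 of 90 and 12 UMIs in 10 of 85 cells. Rpl39l, the germ cell relative of Rpl39, had 11 UMIs in 7 and 82 UMIs in 30 cells. In Treg cluster C12 of the S303/7A library, 26 Rpl39l UMIs came from 8 of 220 cells. Rpl3 and Rpl39 themselves averaged 32.2 and 25.6 CP10K. Other members with a similar name lay within the family's usual range, with Rpl7a at 18.8 CP10K and Rpl10a at 29.0.

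Ribosome genes outside the symbol rule were measured alongside. Fau, which encodes Rps30 fused to a ubiquitin-like protein, had 59.5 CP10K in WT and 64.0 in S303/7A NK cells. Rack1, a signalling scaffold on the small subunit, had 23.3 and 22.3. Rpl36al, a paralog of Rpl36a, was higher in the S303/7A library in 17 of 17 clusters, with 2.63 and 3.66 CP10K in NK cells. Rps27rt, a related gene, was higher in 17 of 17 as well, with 1.10 and 1.71 CP10K there.

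The comparison the design implies is S303/7A against WT within each cluster. The family share was higher in S303/7A in 14 of the 17 clusters and lower in 3. Mo cluster C07 (15.7% and 20.1%, ratio 1.28) and MF cluster C02 (19.4% and 24.7%, ratio 1.27) differed most. Treg cluster C12 (21.3% and 25.3%, 1.19), DC clusters C17 (19.4% and 22.6%, 1.16) and C16 (25.7% and 28.9%, 1.13), and CD8 T cluster C06 (30.9% and 34.5%, 1.12) followed. The ratio ran from 1.025 in stromal cluster C15 to 1.051 in tumor cluster C04, with MF clusters C05 and C09, CD8 T cluster C11 and tumor clusters C01 and C08 between them. It was 0.937 in MF cluster C03 (23.2% and 21.7%), 0.949 in MF cluster C13 (23.6% and 22.4%) and 0.991 in tumor cluster C14. Except in C02, where it exceeded the SD of the S303/7A cells (5.03), the difference in a cluster was smaller than 1 SD over its cells in each library. Large and small subunit totals moved together, with ratios of 1.28 and 1.28 in C07 and 0.947 and 0.925 in C03.

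Cells of the S303/7A library were deeper in most clusters, and the median depth ratio ran from 0.990 in C14 to 2.45 in C02. Within a cluster, deeper cells often had a larger family share: in NK cells the Spearman correlation of share and UMIs over cells was 0.63 in WT and 0.59 in S303/7A. The part of depth in the cluster ratios was examined by comparing cells in bins of like depth. In C02 the ratio was 1.20 between 4000 and 8000 UMIs and 1.01 between 8000 and 16000 UMIs. In C07 it was 1.20 in the only bin with at least 10 cells of each library, 4000 to 8000 UMIs. A bin spans a range of depth, so the libraries can still differ in depth within it. Median depth in C07 was 4292 UMIs in WT and 9020 in S303/7A.

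NK cells are the cells that the series profiled with its other assays. Their family share was 31.8% in WT (357 cells) and 35.4% in S303/7A (194 cells), a ratio of 1.11, or 1.10 from pooled UMIs (exact 95% interval 1.09 to 1.10, counting error only). The ratio was 1.105 with every cell thinned to 1000 UMIs, and the direction turned when cells of a like depth range were compared. Between 2000 and 4000 UMIs the share was 31.5% and 30.9%, between 4000 and 8000 UMIs it was 36.2% and 36.0%, and with those bins weighted equally the ratio was 0.988. Of 80 members found in 10% or more of NK cells of a library, 68 were higher and 12 lower. At least 25% higher were 20 of the 80, where 12.7% of the 4860 genes found in these cells were so. The same fold in the other direction is a level at least 20% lower, which 0 members and 14.9% of genes reached. The members' median log2 ratio was 0.19 and that of all genes found -0.01. Macrophage markers summed to 5.06 CP10K in WT and 12.0 in S303/7A NK cells, with all 8 of the list detected. Apoe (1.08 and 5.20), C1qa, C1qb, C1qc and Csf1r were higher in S303/7A, and Adgre1 (0.0584 and 0.0262), Mrc1 (0.0123 and 0.00824) and Ms4a7 (0.503 and 0.406) were lower. NK markers summed to 87.7 and 59.7 CP10K. Their part in the family's difference was not tested.

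Across the compared clusters there were 1362 pairs of a cluster and a member found in it. Of these, 279 (20.5%) were at least 25% higher in S303/7A, against 12.0% of 118641 pairs over all genes, and 4 (0.294%) at least 20% lower, against 10.7%. Most genes of the background had lower levels than most members, and so a larger counting error in either direction. In NK cells, 175 of 2844 other genes of 900 or more coding bases reached 2 CP10K. With depth bins weighted equally the counts of member pairs were 180 and 15. Relative to all member UMIs, which removes the shift of the family as a whole, they were 56 and 10. The higher pairs were uneven over clusters. Myeloid clusters C02 and C07 had 52 and 54 of 80 members past the fold (background 13.8% and 23.1%), Treg cluster C12 had 34 (17.9%) and CD8 T cluster C06 had 22 (10.1%). DC clusters C17 and C16 had 26 and 19 of 81 (24.5% and 21.6%), the latter near its background. In both, Rpl3l was counted as found only through the S303/7A cells, and it is among the 19 of C16. Tumor clusters C01, C04, C08 and C14 had 8, 11, 9 and 9 of 80 (3.1%, 2.46%, 3.4% and 7.99%). Stromal cluster C15 had 7 (19.1%), MF clusters C05 and C09 had 2 and 4 (9.06% and 23.6%), CD8 T cluster C11 had 2 (9.25%), and MF clusters C03 and C13 had 0 (12.9% and 14.1%). No member passed the fold in the same direction in all 12 immune clusters. The 4 lower pairs were Rplp0 and Rpsa in C14 (background 9.19%), Rps27l in C17 and Rpl7l1 in C16.

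The members differed in how far they moved. Rpl35a (chr16:33056453-33060189, plus strand, ENSMUSG00000060636) had the highest median log2 ratio, 0.46, and was higher in S303/7A in 17 of 17 clusters, past the 25% threshold in 14. In NK cells it had 24.6 CP10K in WT and 37.9 in S303/7A (UMI ratio 1.49, interval 1.42 to 1.55), and in CD8 T cluster C06 24.1 and 36.0. It was also higher in tumor cells, with 21.2 and 27.4 CP10K in C04, and in MF cluster C03, with 26.8 and 30.2, where the family share was lower. Rpl27, Rpl36a, Rps28, Rpl41 and Rpl34 came next, with median log2 ratios of 0.43, 0.38, 0.36, 0.35 and 0.34. Rpl27 had 10.7 and 14.8 CP10K in NK cells, Rpl36a 12.9 and 17.2, Rps28 13.9 and 19.1, Rpl41 29.7 and 41.4, and Rpl34 30.3 and 37.9. Rpl27, Rpl36a, Rps28 and Rpl34 were higher in 17 of 17 clusters and Rpl41, the shortest member, in 15.

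Rps9 (chr7:3703993-3706897, plus strand, ENSMUSG00000006333) had the lowest median log2 ratio, -0.18. It was higher in S303/7A only in NK cells, at 47.2 and 48.8 CP10K (UMI ratio 0.996, interval 0.963 to 1.03), where its log2 ratio of 0.05 became -0.13 with depth bins weighted equally. In the other 16 clusters it was lower, as in MF cluster C03 with 46.1 and 37.0 CP10K and tumor cluster C14 with 54.5 and 44.0. Rps3, Rpl8, Rpl13, Rps4x and Rps6 followed with medians of -0.12, -0.11, -0.10, -0.10 and -0.09. In NK cells Rps3, which lines the mRNA entry channel, had 65.3 and 62.7 CP10K, Rpl8 46.8 and 47.1, Rpl13 94.6 and 91.9, Rps4x 54.4 and 57.1, and Rps6 51.1 and 50.9. In C14 all 6 were lower in S303/7A, with UMI ratios from 0.800 for Rps9 to 0.896 for Rps4x. Rpl29 had the lowest log2 ratio of the members in NK cells, -0.08, at 25.7 and 24.2 CP10K.

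The order followed the length of the coding sequence. This property was chosen after the ratios had been seen. Over the 80 members found in all compared clusters, coding length and the median log2 ratio had a Spearman correlation of -0.82, with -0.79 over the large and -0.84 over the small subunit. All 38 members under 450 coding bases had a median above 0 (0.03 to 0.46, median 0.26), 14 of 19 members from 450 to below 600 bases did (median 0.05), and 10 of 23 members of 600 bases or more did (-0.12 to 0.21, median -0.03). Rps27l (252 coding bases, 0.03) and Rpl5 (891 bases, 0.21) were farthest from their length class.

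**Figure D3:**
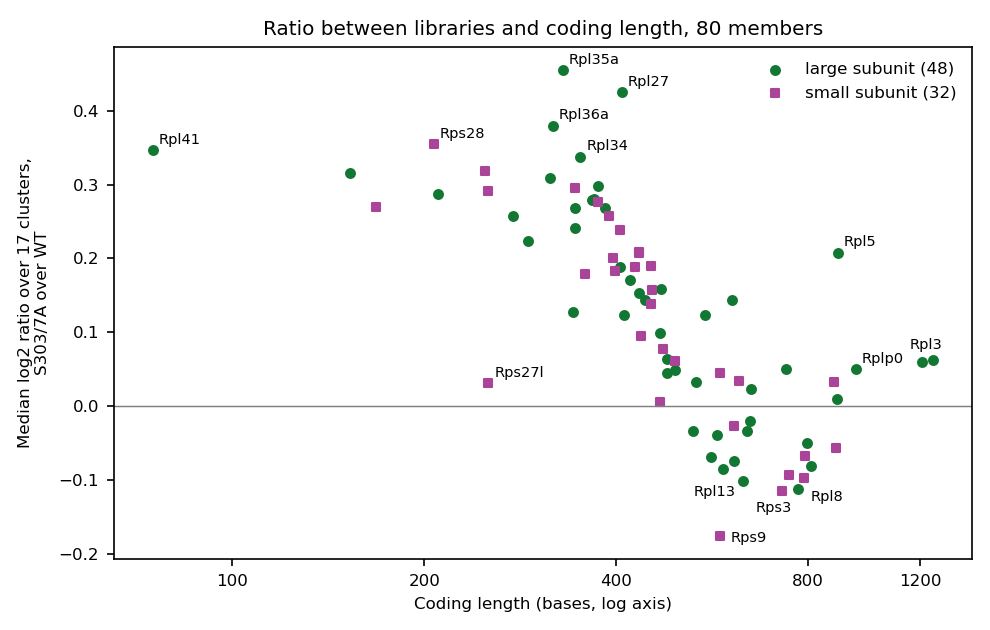
Coding length in bases (horizontal log axis) and median log2 ratio of S303/7A over WT over 17 clusters (vertical axis) for 80 members, by subunit. Short members lie above 0, members above 600 bases on both sides of it, and Rps27l and Rpl5 lie off the trend.

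The order recurred in most clusters, tumor included. The correlation was between -0.91 and -0.86 in the 4 tumor clusters, -0.78 in NK cells, -0.77 and -0.75 in CD8 T clusters C11 and C06 and -0.69 in Treg cells. It was -0.36 in MF cluster C02, -0.29 in C13, -0.15 in C03 and 0.07 in C09. The summed level of the 39 short members (now with Rpl39l) in NK cells was 1216 CP10K for WT and 1497 for S303/7A (ratio 1.23), and that of the 24 long members (with Rpl3l) was 973 and 990, a ratio of 1.02. In tumor cluster C14 short members had 1340 and 1540 CP10K (1.15) and long members 1334 and 1136 (0.852) while the family ratio was 0.991. In C08 the ratios were 1.17 and 0.897. The short ratio exceeded the long ratio in 16 of 17 clusters, the exception being C09 (1.05 and 1.06).

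**Figure D4:**
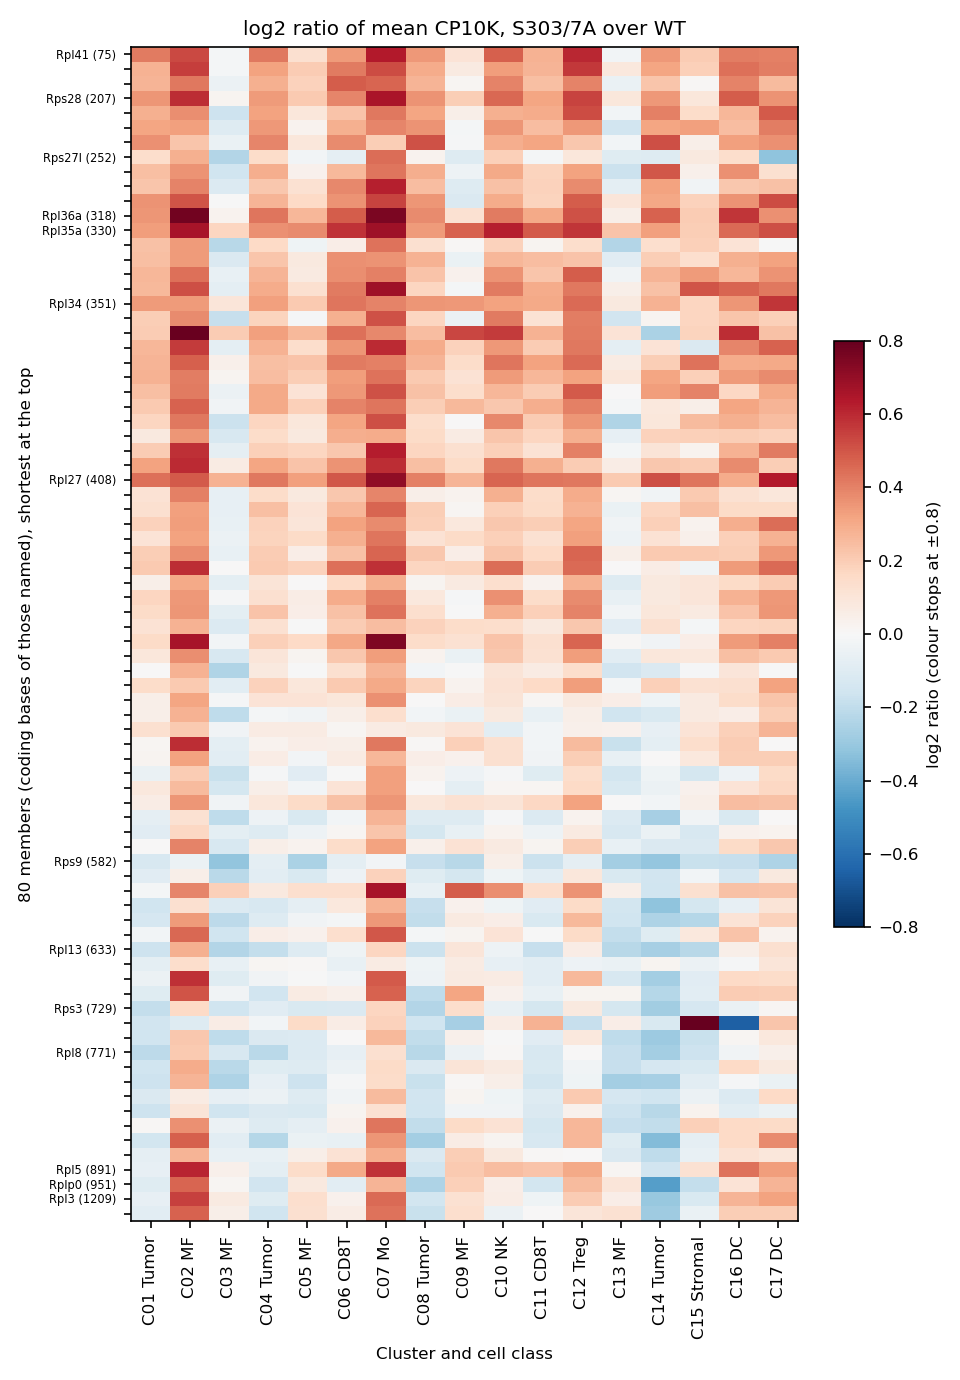
log2 ratio of mean CP10K, S303/7A over WT (colour, red higher and blue lower in S303/7A), for 80 members ordered by coding length from the shortest at the top, in 17 clusters, with names given for some members. Columns C02 and C07 are red almost throughout, C03 and C13 are pale to blue, and in tumor columns red turns to blue from top to bottom.

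**Figure D5:**
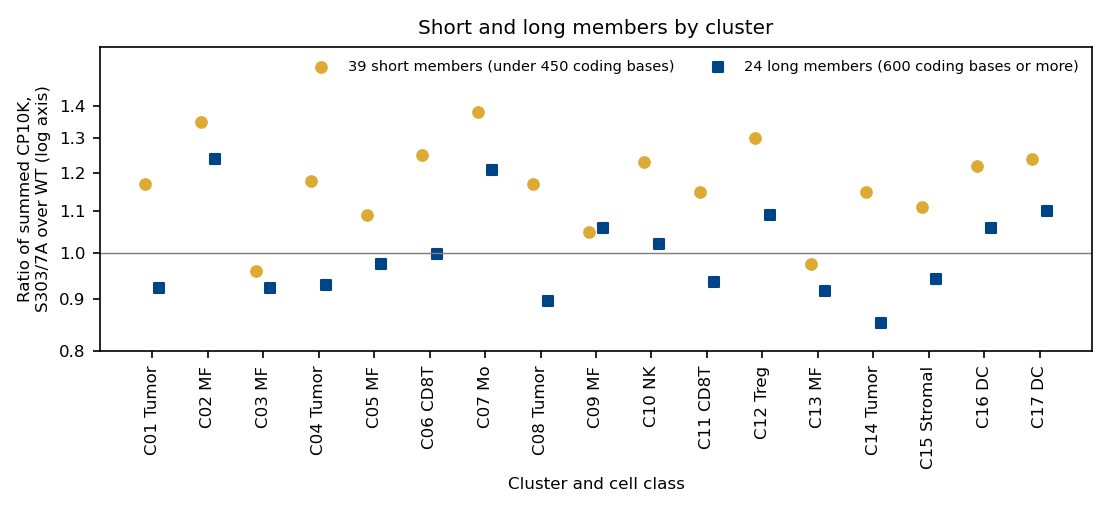
Ratio of summed CP10K, S303/7A over WT (log axis), for 39 short and 24 long members in each compared cluster. Short members lie above long members in every cluster but C09.

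The order was also present among cells of a like depth range. In NK cells between 2000 and 4000 UMIs the short members summed to 1201 CP10K in WT and 1304 in S303/7A (ratio 1.09), and the long members to 956 and 850 (0.889). Between 4000 and 8000 UMIs the ratios were 1.11 and 0.882. With depth bins weighted equally the short ratio exceeded the long ratio in 17 of 17 clusters, and the correlation with length was -0.86. Sharing of sequence with other genes had a Spearman correlation of 0.00 with the ratio over all 80 members, but it went with the ratio in opposite directions by length. Short members with under 10% of the last 300 bases shared had a median of 0.18 (6 members) and those with 50% or more shared 0.29 (23 members). Long members had medians of 0.04 (8 members) and -0.06 (13 members). Over the 17 members with under 10% shared the correlation with coding length was -0.51. The sharing classes rest on a single transcript per gene, and the part of sharing in the order was not tested further. Transcript length had a correlation of -0.52 with the ratio, and level -0.47.

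Taken over all compared clusters, other genes showed less of this order. Over 1698 other genes under 1500 coding bases that were found in every compared cluster, the correlation of length and median log2 ratio was 0.00 to 2 decimals. Other genes of at least 2 CP10K under 300 coding bases had a median of 0.05 (65 genes) and those from 600 to below 900 bases -0.04 (106 genes), the same direction as the members over a smaller range. The corresponding member medians were 0.29 and -0.04. Within single clusters the range of other genes at that level could be wider. In NK cells the same 2 length classes had medians of 0.14 and -0.07, against 0.32 and 0.04 for members. In tumor cluster C01 they had 0.13 and -0.09, against 0.28 and -0.14 for members. In MF clusters C03 (-0.06 and -0.03) and C13 (-0.001 and 0.025) other genes ran the other way. Because each genotype is a single library, genotype and library preparation cannot be told apart as the source of the order.

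Genes that share the TOP motif or the ribosome with the members were more often lower than higher in NK cells, where the members were more often higher. Of 25 such genes, 23 were in the table and found in NK cells, 6 were higher and 17 lower, with 0 past the threshold higher (12.7% of all genes), 1 lower (14.9%) and a median log2 ratio of -0.03. Eif4b, a helicase cofactor in initiation, had 1.78 CP10K in WT and a log2 ratio of -0.48 (UMI ratio 0.685, interval 0.552 to 0.848) and elongation factor Eef2 13.7 and 15.1. In C07, where the family ratio was highest, 22 of 23 were higher and 11 passed the fold, against 23.1% of all genes (median 0.30, against 0.08 for all genes found). In C14, 18 of 23 were lower (median -0.15, all genes -0.02).

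The ribosome biogenesis list, 40 nucleolar and assembly factors, had 27 genes found in NK cells, 14 higher and 13 lower, with 2 past the fold higher (12.7% of all genes) and 1 lower (14.9%), and a median of 0.09. Gnl3, nucleostemin, had the highest ratio, at 0.218 and 0.472 CP10K (UMI ratio 2.07, interval 1.33 to 3.26). The list was higher with the members in C02 (31 of 36 genes, 19 past the fold against 13.8% of all genes, median 0.35, all genes 0.03) and C07 (29 of 31, 24 past the fold against 23.1%, and 1 past it lower, median 0.50). In tumor cluster C08 it was lower in 36 of 40 genes, 8 past the fold where 4.85% of all genes were (median -0.21, all genes -0.02).

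Among 16 growth control genes that act on ribosome production, 7 were found in NK cells, 2 higher and 5 lower, with 0 and 2 past the fold, against 12.7% and 14.9% of all genes (median -0.26). Eif4ebp1, the translation repressor inactivated by mTORC1, had 0.549 and 0.276 CP10K (UMI ratio 0.407, interval 0.257 to 0.629), and Rheb, the activator of mTORC1, 1.42 and 1.01. Myc, a transcriptional driver of ribosome genes, had 0.512 and 0.432 (interval of the UMI ratio 0.567 to 1.15). Rps6kb1 (0.369 and 0.400 CP10K, interval 0.743 to 1.83) and Eif4ebp2 (0.567 and 0.574, interval 0.720 to 1.46) were higher. Of 13 p53 pathway genes, 6 were found in NK cells, 2 higher and 4 lower, with 0 and 2 past the fold (median -0.09), against the same shares. Cdkn1a had 0.418 and 0.179 CP10K (UMI ratio 0.543, interval 0.307 to 0.932). Bax (1.75 and 2.16 CP10K, interval 0.983 to 1.40) and Aen (0.239 and 0.297, interval 0.660 to 1.68) were higher. In C14, Rplp0 had 107 CP10K in WT and 79.0 in S303/7A and Rpsa 52.5 and 41.3. There 12 of 13 p53 pathway genes were lower, 6 past the fold where 9.19% of all genes were (median -0.28, all genes -0.02). The list's median was similar in stromal cluster C15 (-0.29) and DC cluster C16 (-0.27), where the family share was higher. Over the compared clusters it ran from -0.29 in C15 to 0.11 in tumor cluster C01. A link to the members was not tested.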

How the data were processed

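Each cell's expression was deposited as natural log values, which the deposited table holds to 3 decimals. The values are the natural log of 1 plus the cell's UMI count scaled to 100000, from the values themselves; the authors also deposited total UMI and gene counts per cell. Whole UMI counts were recovered for 99.9% of nonzero deposited values within 0.1 UMI, and the gene number matched in all 11456 cells. The tools were Cell Ranger and Seurat 3.0 and the genome mm10, also written GRCm38, per the submitters' processing notes. The authors' filters, clustering and doublet removal were not given in the sources used here.

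From the counts, CP10K was averaged over the cells of a cluster and library (numpy 2.4.6, pandas 2.3.3, scipy 1.17.1). Log2 ratios, S303/7A over WT, used a pseudocount of 0.1 CP10K, which understates the change of low genes. Genes found in at least 10% of cells of a library entered counts of genes at least 25% higher or, by the same fold, 20% lower. Intervals are exact 95% Clopper-Pearson intervals (conditional for ratios of pooled UMIs) and cover counting error only. No test was made, since each genotype is 1 library and cells are not replicates. Simulated NK counts with 200 of 1169 genes changed were used as a check, and 95.7% of intervals held the true ratio. All simulated cells of a library were drawn from a single profile, so the check covers counting error and not the spread between real cells. Doublets were kept; an alternative left out the highest Scrublet scores (scanpy 1.11.5; 361 WT and 215 S303/7A cells). Alternatives also included cells thinned to 1000 UMIs (199 and 63 shallower cells left out), removal of the shallowest 10% of cells, and depth bins with at least 10 cells per library, weighted equally. Coding lengths, gene positions and shared 31-base words come from GENCODE M21.

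The members, the gene lists and the rules for named genes were chosen with earlier results of these data known. Named were the 5 highest and lowest members per subunit, the 8 most variable, the 6 highest and lowest median ratios, paralogs, members of known role, extremes of a cluster, and the extremes of each list in NK cells. Some of these are not reported here.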

Additional observations from a re-analysis of the deposited data

Results flagged for a closer look

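The family share of UMIs was higher in the S303/7A library in most of the compared clusters and lower in 3, and the difference in direction between clusters was not tested. The ratio of S303/7A over WT was 0.937 in MF cluster C03 and 0.9491 in MF cluster C13, both of macrophage class. Their median depth ratios were 2.002 and 2.015. In MF cluster C05 the median depth ratio was 2.101 and the share ratio 1.03. By depth, the C05 share ratio was 1.151 between 4000 and 8000 UMIs (20 S303/7A cells). It was 0.9803 between 8000 and 16000 (131 cells) and 0.9229 between 16000 and 32000 (361 cells). The part of depth in these ratios was not tested. The family share ratio was 0.9913 in tumor cluster C14, the only compared cluster whose median depth was not higher in S303/7A (0.990). With depth bins weighted equally the C14 ratio was 1.047. That value gives equal weight to a bin of 14 WT and 10 S303/7A cells (8000 to 16000 UMIs, ratio 1.174). The C14 ratio was 1.046 between 16000 and 32000 UMIs (94 and 47 cells). Between 32000 and 80000 UMIs, with the most cells (129 and 72), it was 0.9344. In C03 the ratio was 0.8375 between 4000 and 8000 UMIs and 1.011 between 8000 and 16000 UMIs.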

How the results depend on the processing

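No paired analysis was possible because each genotype is a single library. The number of clusters with a lower family share was 3, and 4 without the shallowest 10% of cells and with depth bins weighted equally. The NK ratio of 1.114 was 1.097 from pooled UMIs, 1.105 after thinning to 1000 UMIs and 1.095 without the shallowest 10% of cells, and it reversed to 0.9878 with depth bins weighted equally. Depth bins also reversed C11 (0.999) and C14 (1.047), and leaving out shallow cells reversed C09 (0.9754). Pairs of cluster and member at least 25% higher numbered 279, against 180 with depth bins, 56 relative to all member UMIs and 30 at 1.5-fold. Lower pairs numbered 4, against 12 after thinning, 15 with depth bins, 10 relative to member UMIs and 1 at 1.5-fold. The other settings gave 256 to 294 higher and 3 to 5 lower pairs. The cause of each change was not tested, apart from the stricter fold, which by construction calls fewer. Of 133 NK values of named members under other settings, 80 stayed within their counting error and 53 moved further. The sign changed in 14, all of Rpl8, Rplp0, Rps27l, Rps4x and Rps9, none of which had reached the 25% threshold. The correlation with coding length stayed between -0.86 and -0.82 under the 6 other settings.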
